A study of Bos taurus with 10 samples.

Results

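The regions described here were the autosomal CG sites that were covered in testis and in no other tissue. A CG site was a cytosine of a CG dinucleotide, given by chromosome, position and strand, and it was covered when at least 8 reads lay on it. The members were selected on coverage alone: they had 8 or more reads in the testis library and were listed in none of the 9 other libraries. There were 128604 of them among 452664 autosomal CG sites covered in any tissue, and they made up 55.6 % of the 231485 autosomal CG sites covered in testis. Of the other testis sites, 51227 were covered in all 10 tissues and are called shared sites below, and 51654 were covered in testis and in 1 to 8 other tissues.

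Methylation was measured by reduced representation bisulfite sequencing (RRBS) in 1 library from each of 10 tissues from Dominette, the Hereford cow behind the cattle reference genome, and from her relatives. Whole testes came from an adult male. Adult females gave skeletal muscle (near a caesarean section), intercaruncular uterus, nucleated blood cells and lactating mammary gland (day 90). Juvenile females gave ileum, abomasum, frontal cortex and mammary gland parenchyma, and a male fetus gave rumen. No tissue had a replicate, the animals that shared tissues are not given in the sources used here, and tissue cannot be told apart from animal, sex, stage or library. Whole testis holds germ cells together with Sertoli, Leydig and other somatic cells, and the levels below are means over all of them. The tissue label could not be checked against marker genes with these data, since no gene annotation of the genome build was used here. Testis listed the most cytosines, and its reads summed over them were 40089443 against 16125651 to 25559357 in the 9 others, but its median depth at autosomal CG sites was 16 reads, against 9 in abomasum and 21 to 33 in the 8 other tissues. It also stood apart in how the strands of a CG agreed, with r = 0.635 between strands over all CG dyads off CCGG against 0.933 to 0.979 in the other libraries, which touches the levels of the members and is taken up after them. With at least 20 reads on both strands r was 0.832 in testis.

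DNA methylation in mammals lies mostly on the cytosines of CG dinucleotides, and a maintenance methyltransferase copies it to both strands after replication, so the strands of a CG usually carry like levels. Most CG sites in sparse sequence are methylated, while CG islands, where the dinucleotide is dense and which often hold promoters, are mostly free of methylation. Male germ cells lose methylation early in development and set it anew as they develop. In RRBS the enzyme *MspI* cuts DNA at CCGG whether or not the inner cytosine is methylated. Fragments of a limited length are then kept, and bisulfite turns unmethylated cytosines into uracil, and the methylation level is the fraction of reads that still show a cytosine. Reads start at the cut, and a site is seen only where a fragment of the kept length carries it.

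The sequences below show what the testis-only sites looked like at both ends of the range of levels, beside shared sites of another level, and where the strands differed. Each is a gap-free run put together from the 5 bases deposited around each cytosine, on the plus strand of UMD3.1, with the testis-only CG sites in capitals. The runs ended where no cytosine was listed, so some are shorter than the cluster they belong to. The first pair had the highest levels, and both begin and end near a CCGG. The second pair had a level of 0 % at every member. The fifth was a cluster of many members far from any site of another tissue. The sixth lay above and the seventh and eighth below the shared sites near them, and the last carried opposite levels on its strands.

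chr13:16634391-16634450 (highest level): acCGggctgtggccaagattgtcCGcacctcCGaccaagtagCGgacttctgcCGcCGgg

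chr24:61644866-61644925 (highest level): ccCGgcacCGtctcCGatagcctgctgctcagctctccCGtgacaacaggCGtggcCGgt

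chr6:64751248-64751300 (lowest level): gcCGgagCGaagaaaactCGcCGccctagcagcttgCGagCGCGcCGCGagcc

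chr19:44175984-44176037 (lowest level): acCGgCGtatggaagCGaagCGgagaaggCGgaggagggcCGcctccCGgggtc

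chr5:71961251-71961316 (isolated): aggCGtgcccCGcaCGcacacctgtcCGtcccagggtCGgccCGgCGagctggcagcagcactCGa

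chr25:32379396-32379451 (above shared sites): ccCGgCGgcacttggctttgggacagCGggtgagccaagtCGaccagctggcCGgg

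chr11:105739649-105739701 (below shared sites): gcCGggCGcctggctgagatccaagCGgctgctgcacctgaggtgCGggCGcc

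chr2:136462118-136462159 (below shared sites): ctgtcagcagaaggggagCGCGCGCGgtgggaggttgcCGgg

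chr10:8742580-8742631 (opposite strands): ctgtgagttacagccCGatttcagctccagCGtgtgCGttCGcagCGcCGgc

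The highly methylated runs on chromosomes 13 and 24 each held 6 CG positions in 60 bases, and the unmethylated runs on chromosomes 6 and 19 held 9 in 53 and 7 in 54 bases. In the cluster on chromosome 24 the 10 members spanned 56 bp, lay between 93.8 % and 100 % and had 16 to 21 reads. In the cluster on chromosome 13 the 10 members lay between 87.0 % and 100 % at 19 to 30 reads. The third cluster with the highest levels, at chr2:133895574-133895769, had a mean of 96.5 % ± 2.50 (SD over 11 members). In contrast, the 15 members on chromosome 6 and the 15 on chromosome 19 had no methylated read, at 12 to 16 and 8 to 17 reads. The third cluster of the lowest levels, at chr2:122054205-122054297, held 22 members with 8 to 18 reads and again a level of 0 % throughout. All members of the 3 highest clusters lay within 49 bases downstream of a covered CCGG, as did 9 of the 15 members on chromosome 6, all 15 on chromosome 19 and 16 of the 22 in the unmethylated cluster on chromosome 2. Among 435 clusters with at least 10 members and a median of at least 15 reads, 22 had a mean above 80 %, 300 a mean below 20 % and 21 a mean of 0 %.

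Methylation levels of testis-only sites fell at both extremes. Their mean was 45.3 % ± 40.1 (SD over sites) and their median 45.5 %, and 41.5 % of them were below 20 %, 27.8 % between 20 and 80 % and 30.7 % above 80 %. A level of 0 % was seen at 29.7 % and a level of 100 % at 12.5 % of the members. Testis sites covered in 1 to 8 other tissues had a mean of 28.9 %, with 16.1 % above 80 %. Shared sites had a mean of 24.1 % in testis, and 66.8 % of them were below 20 % and 12.1 % above 80 %. The testis-only class held a larger share of highly methylated sites than either of the other classes of the same library.

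**Figure D1:**
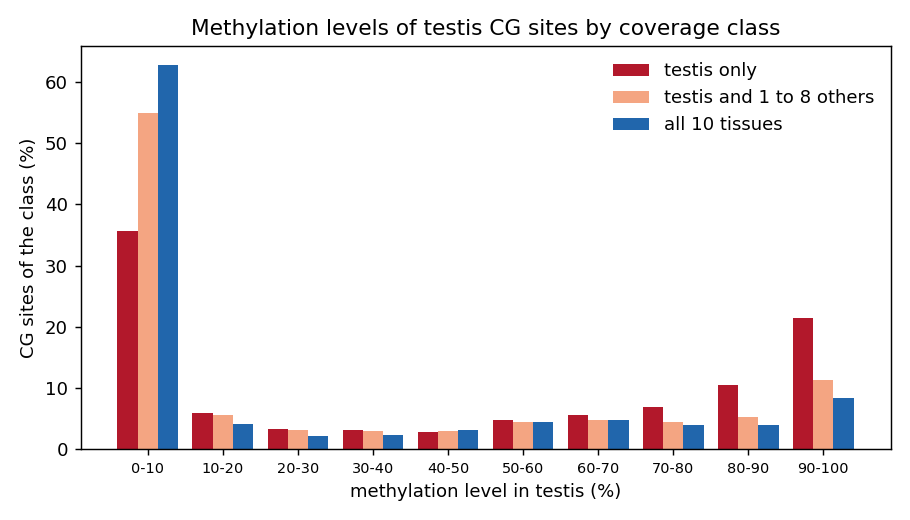
Share of CG sites (%) in each 10-point class of the methylation level in testis (%), for testis-only sites, sites covered in testis and 1 to 8 other tissues, and sites covered in all 10 tissues. Of the testis-only sites 35.6 % lay in the lowest class and 21.4 % in the highest, against 62.7 % and 8.37 % of the sites of all 10 tissues.

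Testis-only sites were shallow, as a class chosen by coverage may be. Their median depth was 12 reads (quartiles 9 and 17, highest 116), against 19 reads at sites covered in 1 to 8 other tissues and 47 reads at shared sites. Just inside the threshold, 20419 members (15.9 %) had 8 reads, with a mean level of 44.0 %, and 23834 members (18.5 %) had 20 reads or more, with 46.2 %. Just outside the rule, 6900 sites were covered in testis and in 1 other tissue, with a mean level of 41.1 % in testis, and 47.5 % of these were found in ileum. Of these sites 2737 had only 8 reads in the other tissue, and their mean in testis was 41.2 %. A level that rests on 8 reads moves in steps of 12.5 points. No methylated read among 8 allows a level of up to 37.5 %, and among 12 up to 25 %, while 6 methylated reads of 12 have a 95 % Wilson interval from 25.4 to 74.6 %. These limits cover counting error only, since copies made by PCR were not told apart.

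Members at CCGG had higher levels than other members, with a gap of only 5.14 points where the sites shared reads, as given below. The inner cytosine of CCGG, at which *MspI* cuts, made up 35.8 % of testis-only sites and 12.9 % of shared sites. Members at CCGG had a mean level of 60.1 % and members elsewhere 37.0 %, and shared sites showed the same order, with 34.4 % and 22.6 %. The share of only-sites at CCGG was 35.8 % in testis and 3.02 to 30.1 % in the 9 others. Coverage chose these sites, so the shares are a description.

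Most members lay where a read running downstream from a covered CCGG would end up. A read stack is here the run of 49 bases, the length of a read, from a covered CCGG downstream on the same strand. Reads were paired, and the stretch upstream of a CCGG, where the second read of a pair can lie, was not counted as a stack. Sites outside stacks may thus still lie in a read that starts at a CCGG. Of the members 106273 (82.6 %) lay in 46176 read stacks, with a mean level of 50.9 %, 35.3 % of them below 20 % and 35.6 % above 80 %. The other 22331 members, outside read stacks, had a mean of 18.5 %, and 53.0 % of them were at 0 %. Shared sites showed the opposite order, with 22.8 % in read stacks and 33.3 % outside. Within a read stack the testis-only sites carried like levels: in 29499 stacks the CCGG cytosine was at 58.2 % and the members downstream at 53.0 %, and 90.6 % of the stacks differed by at most 25 points (Pearson's r 0.913 over stacks, whose sites share reads).

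The strands of a CG agreed far less at testis-only sites than elsewhere. Leaving out CCGG, both strands were read only in testis at 17068 CG dyads, which differed between strands by 31.1 points on average, with r = 0.219 over dyads. In 2972 of them (17.4 %) one strand was below 20 % and the other above 80 %. At the 12664 dyads covered in all 10 tissues the strands differed by 4.64 points in testis, with r = 0.949, and 32 (0.253 %) were opposite in this sense. Over all covered dyads the correlation between strands was 0.635 in testis and 0.933 to 0.979 in the 9 other tissues (exact permutation of 1 tissue against 9, two-sided, p = 0.1, the smallest this design allows). Opposite strands made up 6.83 % of all testis dyads and 0.105 to 0.527 % in the others (p = 0.1 by the same exact test). The lack of agreement was not seen at the dyads that abomasum alone covered, where r was 0.948 over 4693 dyads, while the 67 dyads of ileum alone had r = -0.452.

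The disagreement was largest where 1 strand alone lay in a read stack. Where 1 strand lay in a read stack and the other did not (12201 dyads), the strand in the stack had a mean of 46.0 % and the strand outside 11.5 %, a difference of 34.5 points ± 38.5 (SD over dyads) at median depths of 13 and 12 reads. In 2744 of these dyads the strand outside was below 20 % and the strand in the stack above 80 %, and in 6 the reverse held. Where both strands lay in a read stack (3965 dyads) r was 0.719 and 4.09 % were opposite. With no strand in a stack (902 dyads) r was 0.433 and 6.65 % were opposite. Both kinds agreed less than the testis dyads covered in all 10 tissues, where r was 0.949. At shared sites with 1 strand in a stack (1934 dyads) the means were 37.7 % and 34.3 %. On chromosome 10 in the run shown above, the 6 members on the minus strand, all in the stack that starts at the CCGG on the right, lay between 88.9 % and 100 % at 18 reads each. The 5 members on the plus strand of the same CG sites, none in a stack, lay between 5.88 % and 11.8 % at 17 reads each. On their strand they lay upstream of that CCGG. Whether the low levels outside read stacks belong to the tissue or to the preparation and reading of the library was not tested, and with 1 testis library the sources cannot be told apart, so the levels of those 22331 members may not be those of the tissue. Levels of testis-only sites are therefore also given below for members in read stacks alone where this moves them.

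**Figure D2:**
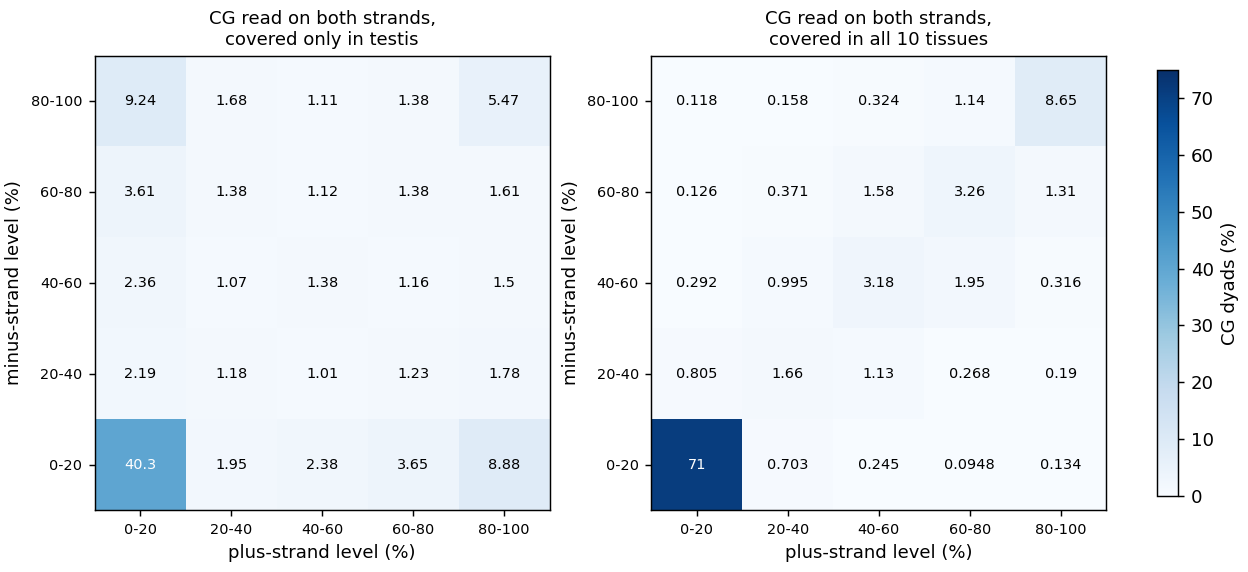
Share of CG dyads (%) by the methylation level of the plus strand (x axis, %) and of the minus strand (y axis, %) in testis, for dyads covered only in testis (left) and in all 10 tissues (right), CCGG left out. The corners at upper left and lower right hold 9.24 % and 8.88 % of the testis-only dyads, against 0.118 % and 0.134 % of the dyads of all 10 tissues.

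Non-CG cytosines were nearly unmethylated around the members and around shared sites alike. Cytosines covered only in testis within 50 bp of a member had mean levels of 0.822 % (CHG) and 0.803 % (CHH). The same values around shared sites were 0.972 % and 1.47 %.

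The level of a testis-only site went with the number of CG sites in its read stack. Members alone in their stack had a mean level of 63.7 % ± 36.2 (SD over 16103 sites), and those in stacks of 2 and 3 CG sites had 66.8 % and 58.1 %. With 4 CG sites the mean was 42.9 %, with 5 or 6 it was 24.1 %, and with 7 or more 6.62 %. Shared sites had 37.5 % with 1 CG site, 51.7 % with 2, 59.2 % with 3, 59.6 % with 4, 43.4 % with 5 or 6 and 10.1 % with 7 or more. At like density they were thus lower than testis-only sites with 1 or 2 CG sites and higher with 3 or more. The classes differed in how dense they were: 4.42 % of the testis-only sites in stacks lay in stacks with 7 or more CG sites, and 65.6 % of the shared sites did. Weighted to the mix of densities of the testis-only sites, the shared sites had a mean of 49.4 %, and sites covered in 1 to 8 other tissues had 49.7 %. Testis-only sites in stacks had 50.9 %, but this closeness averages gaps of opposite sign at low and high density. The flanking bases differed in the same sense, with 59.4 % G or C in the deposited bases around members off CCGG and 78.0 % around shared sites off CCGG.

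**Figure D3:**
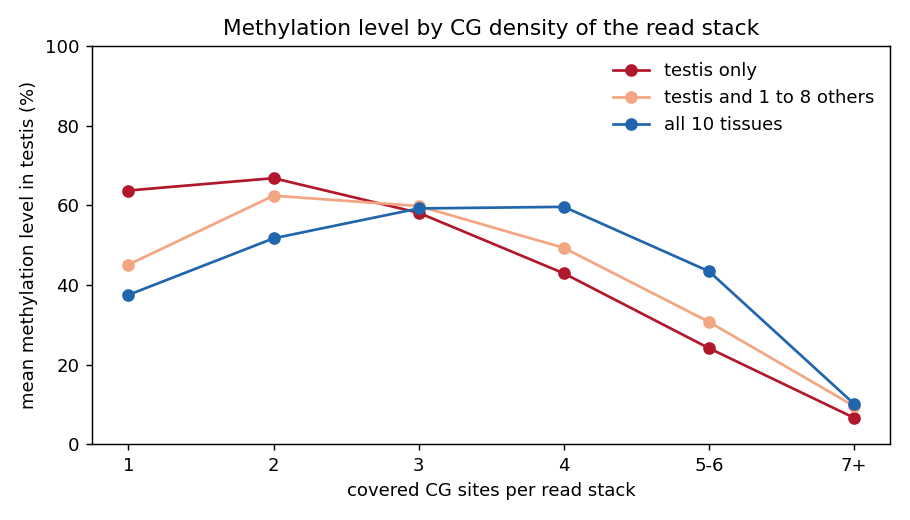
Mean methylation level in testis (%, y axis) of CG sites by the number of covered CG sites in their read stack (x axis), for the 3 coverage classes. Testis-only sites fall from 63.7 % with 1 CG site to 6.62 % with 7 or more, and the order of the classes reverses between 2 and 4 CG sites.

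The question of whether a tissue's only-sites differ in level from shared sites can be put to every tissue. The mean level of sites covered in 1 tissue alone exceeded that of shared sites in the same library by 21.1 points in testis, 18.2 in nucleated blood cells, 17.8 in mammary gland parenchyma, 17.3 in frontal cortex and 12.9 in ileum. The other differences were 11 points in lactating mammary gland, 10.3 in skeletal muscle, 9.54 in rumen, 9.31 in abomasum and 9.11 in uterus. All 10 were positive, with a mean of 13.7 points ± 4.51 (SD, p = 0.00195 in a two-sided exact permutation of signs). The value of testis lay above those of the 9 others (exact permutation, p = 0.1, the smallest possible). This order did not hold in read stacks alone, where testis had 28.1 points and the highest other tissue 28.2, nor at 20 reads or more, where testis had 22.1 points and the highest other tissue, with far fewer sites, 55.7. Weighting sites by their reads changed this result: the mean difference was -3.57 points, 3 of 10 tissues were positive (exact permutation of signs, p = 0.180), and testis kept a difference of 13.0 points. The weighting moved mainly the shared sites, from 24.1 to 32.5 % in testis and from 28.1 to 54.6 % in abomasum. The only-sites went from 45.3 to 45.6 % and from 37.4 to 38.0 %. In testis the highest count was 65535 reads at shared sites and 116 at only-sites. The value of 65535 was also the highest at sites covered in testis and 8 others. It may thus be a ceiling of the deposited counts, which was not tested. Abomasum had nearly as many only-sites as testis, 114252, and the 8 other tissues had 704 to 10078.

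Covered CCGG sites, whose spacing gives the length of the fragments between cuts where none is missed, were spaced differently in testis. Of 61306 intervals between consecutive covered CCGG sites in testis, 15335 were at least 20 and under 200 bp. Of the intervals in this range 38.4 % were 50 to 89 bp long. In the 9 other tissues this share was 4.79 to 17.9 %, highest in abomasum. The spacing follows from coverage, which chose the members, so these shares are a description. Between testis-only CCGG sites 8056 of 45439 intervals lay in this range. Of these 60.2 % were 50 to 89 bp and 26.9 % were 20 to 49 bp. Between shared CCGG sites these shares were 6.21 % and 80.5 %. Off CCGG, 14469 testis-only sites (17.5 %) lay within an interval of 50 to 89 bp between CCGG sites covered in testis, with a mean level of 39.0 %, and 1508 shared sites (3.38 %) did, with 38.0 %. The part that the length of the kept fragments had in the coverage of these sites was not tested.

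**Figure D4:**
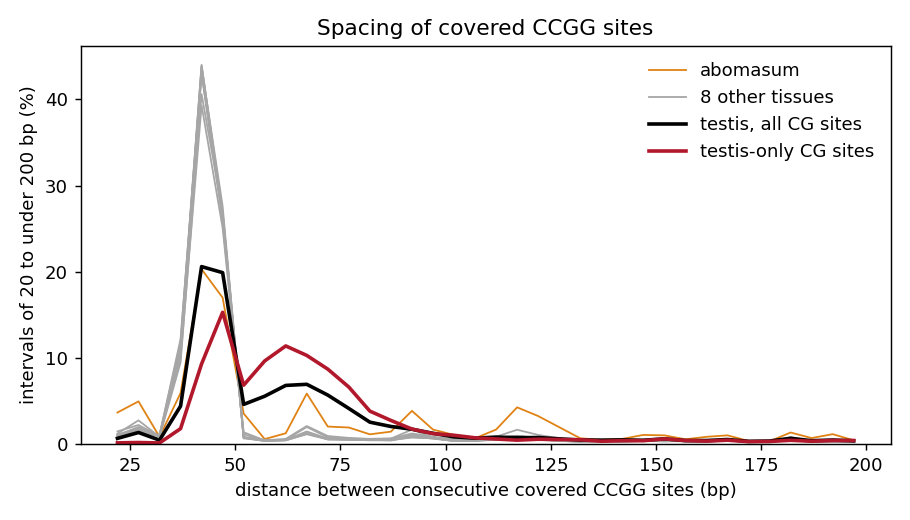
Share of intervals of at least 20 and under 200 bp (%, y axis) by the distance between consecutive covered CCGG sites (bp, x axis, classes of 5 bp). Lines are for testis, testis-only sites, abomasum and the 8 other tissues. From 50 to 89 bp lie 60.2 % of the intervals between testis-only sites, 38.4 % of those in testis, and 4.79 to 17.9 % of those in the 9 other tissues.

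Testis-only sites mostly lay far from shared sites. The median distance to the nearest shared site on either strand was 73814.5 bp, and 80.7 % of the members were more than 10 kb away. For sites covered in testis and in 1 to 8 other tissues the median was 2505.0 bp. Sites of any other tissue were nearer, at a median of 2675.0 bp, and 33.8 % of the members had none within 10 kb. Counted over either strand, 3877 members (3.01 %) were the other strand of a CG that another tissue covered, and their mean level was 27.4 %.

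The level was higher beyond 1 kb from a shared site. Members within 50 bp of a shared site had a mean level of 15.2 %, those at 51 to 220 bp 13.9 % and those beyond 220 and up to 1000 bp 15.7 %. Beyond that the mean was 46.9 % up to 10000 bp and 48.1 % further away. In read stacks alone the means were 17.0 % within 1 kb, 52.2 % up to 10 kb and 54.0 % further away, and outside stacks 7.78 %, 24 % and 19 %. The rise was also present among members of like CG density. Alone in their read stack, members within 1000 bp had 20.3 %, those up to 10 kb 57.0 % and those beyond 66.5 %. With 4 to 6 CG sites the values were 13.6 %, 42.6 % and 35.5 %. With 7 or more CG sites they were 4.86 %, 8.52 % and 7.03 %.

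**Figure D5:**
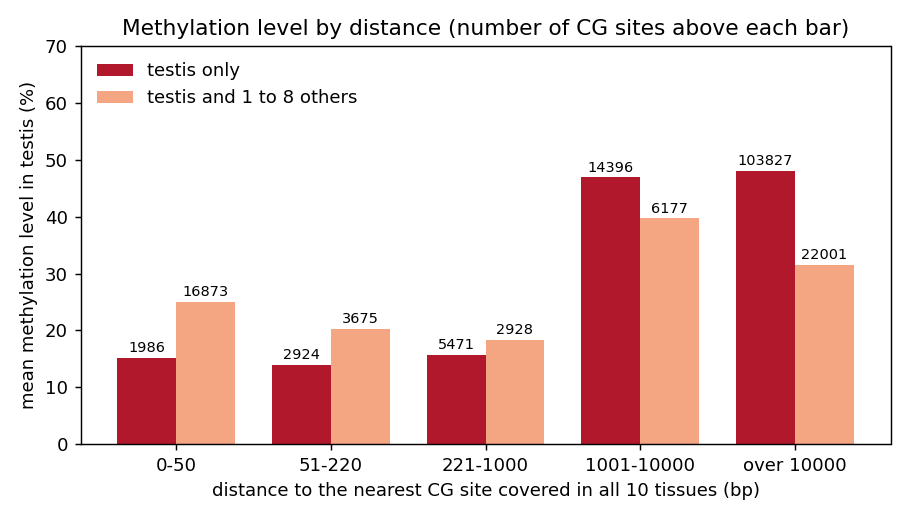
Mean methylation level in testis (%, y axis) by distance to the nearest CG site covered in all 10 tissues (bp, x axis), for testis-only sites and sites covered in testis and 1 to 8 other tissues, with the number of sites above each bar. Testis-only sites lie at 13.9 to 15.7 % up to 1000 bp and at 46.9 and 48.1 % beyond.

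Within 1 kb of a shared site the testis-only sites differed little from their neighbours on average, and most of these neighbours were unmethylated. Such a site was found for 10381 members (8.07 %), whose mean level was 15.1 %, while the shared sites around them had 17.4 % in testis. The difference was -2.36 points ± 20.4 (SD over members), with a median of -1.05. The gap of 21.1 points between all testis-only sites and all shared sites was not seen between near neighbours, and the members with no shared site within 1 kb had a mean of 47.9 %. Across the members r was 0.757 between their level and that of their neighbours. Where the neighbours were below 20 % (mean 2.35 %), 8077 members (77.8 %) had a mean of 4.48 %. Where they were between 20 and 80 % (mean 54.1 %), 1331 members had 40.5 %, and where they were above 80 % (mean 92.5 %), 973 members had 68.2 %. Beside methylated neighbours the members were thus lower on average, and beside neighbours below 20 % slightly higher. These means include the 2203 members outside read stacks, which had a mean of 7.78 %. The split by neighbour level was not made in read stacks alone.

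Few members departed strongly from their neighbours. By more than 25 points 452 members (4.35 %) were higher, against a background of 4.60 % among all testis sites covered in 1 to 9 tissues, members included. Lower by more than 25 points were 844 members (8.13 %), against a background of 6.64 %. In read stacks alone the share that was lower was 6.53 % and the share that was higher 4.81 %, and the mean difference was -0.886 points. At 20 reads or more the mean difference was -0.927, and with a window of 5 kb it was 0.773.

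The same local comparison gave no common direction over the tissues. The mean difference between a tissue's only-sites and the shared sites within 1 kb of them was -2.36 points in testis, -6.78 in frontal cortex, -3.05 in ileum, -1.78 in mammary gland parenchyma, -1.17 in skeletal muscle and -1.12 in abomasum. It was 1.03 in uterus, 1.87 in lactating mammary gland, 2.47 in rumen and 6.12 in nucleated blood cells. The mean over tissues was -0.477 ± 3.54 (SD), with 4 of 10 positive (exact permutation of signs, p = 0.676). Testis lay among the others (exact permutation, p = 0.600).

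Named clusters show the exceptions. Clusters join testis-only sites at most 200 bp apart. Of 797 clusters with at least 5 members and 5 shared sites within 1 kb, 8 lay above the shared sites by more than 25 points and 41 below. The median cluster difference was -0.292 points. No like count was made for clusters of other testis sites or in read stacks alone, so the counts are a description. The largest excess was at chr11:105919731-105919870, where 5 members had a mean of 67.1 % at 12 to 47 reads, while the 14 shared sites near them had 1.44 to 4.20 % in the 9 other tissues and lay within that range in testis. At chr25:32379398-32379449, within the run shown above, 5 members had 67.4 % ± 14.5 (SD over members) at 25 to 38 reads. The 18 shared sites near them had 28.3 % in testis and 47.2 to 63.8 % in the other tissues, so that the mean of the members lay above all 10 values while single members, from 54.1 to 92.0 %, lay within and above their range. At chr24:42021961-42022027 7 members had 45.1 % and the shared sites 2.44 % in testis, but 45.0 % in abomasum and 1.82 to 5.38 % in the 8 other tissues. The fourth, at chr6:109089229-109089256, held 5 members from 12.5 to 100 % beside shared sites at 3.18 %.

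The clusters furthest below their neighbours were unmethylated or nearly so. At chr2:136462137-136462157 all 5 members were at 0 %, at 8 to 14 reads, and all lay on the minus strand, while 16 shared sites within 1 kb had 79.1 % ± 8.05 (SD over sites) in testis. At chr11:105739651-105739699 7 members had 10.0 % at 15 to 16 reads beside shared sites at 86.4 %, which spread from 20 to 97.6 % over the 9 other tissues. At chr1:155753845-155753890 6 members had 15.8 % beside shared sites at 84.3 % in testis and 94.2 to 98.1 % elsewhere. At chr19:56171821-56171869 7 members had 2.20 % beside 69.5 %. These clusters were chosen for their difference, so the values are a description.

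Shared sites that had a testis-only site within 1 kb were less methylated than the other shared sites, in every tissue. In testis 20081 such sites had a mean of 17.6 % and the 31146 others 28.3 %, a difference of -10.7 points. The difference in the 9 other tissues was -12.2 to -13.9 points (exact permutation of 1 tissue against 9, two-sided, p = 0.1, the smallest possible). The places around the testis-only sites had lower levels than other shared places in libraries that do not cover the members themselves, and by somewhat more than in testis. In testis this gap was -7.00 points with a window of 220 bp and -0.561 with 5 kb, so its size rests on the window.

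The members fell into 40785 clusters, of which 11578 held a single member. The 12706 clusters with at least 4 members held 76703 members. In 37.0 % of these clusters all members were below 20 %, and in 6.85 % all were above 80 %. Of the members of the low clusters 77.6 % lay in read stacks. Levels varied more between clusters (SD 34.6 points) than within them (20.5 points). With each cluster as 1 value the mean level was 55.7 % against 45.3 % over sites. The 5 clusters with the most members had 26 to 30 members and means of 1.44 to 7.43 %. The largest, at chr23:25228305-25228615, held 30 members on 20 CG sites with 8 to 22 reads, from 0 to 20 %.

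No CG site of another library lay within 10 kb of 16198 clusters (39.7 %). The 43514 members with no site of another tissue within 10 kb had a mean level of 57.1 %. Of these members 41.3 % were above 80 % and 28.2 % below 20 %. The isolated clusters with the most members, in contrast, were nearly unmethylated. At chr3:99533438-99533881 26 members had a mean of 2.09 %, and the nearest site of another tissue was 12171 bp away. At chr5:71961092-71961335, the cluster of the fifth run shown above, 24 members had 0.972 %, with the next site of another tissue 209219 bp away. At chr15:83551085-83551175 23 members had 1.5 % at a median of 21 reads. The genes at these places were not analysed here.

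Along the chromosomes the testis-only sites were gathered towards the distal end, as shared sites were. The last 10 % of each autosome, up to the last covered position, held 29.7 % of the members and 28.1 % of the shared sites. The first 10 % held 9.10 % of the members, and the windows between held 7.65 % each on average. The last 2 Mb held 11.7 % and the first 3 Mb 4.07 % of the members. Bovine autosomes are acrocentric, with the centromere at the start.

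Members at the distal end were more methylated. Their mean level was 55.4 % in the last 10 %, 46.8 % in the first 10 % and 40.2 % between, and 56.6 % in the last 2 Mb. In read stacks alone the last 10 % had 61.7 % and the windows between 45.5 %, and outside stacks 25.7 % and 14.8 %. Shared sites in testis showed the same order, with 35.3 %, 25.6 % and 18.7 %. The level of the members was higher in the last window than in the rest of the chromosome on 28 of 29 autosomes, chromosome 18 being the exception with 34.5 % against 45.5 %. Mean levels per autosome ran from 37.9 % on chromosome 7 to 51.9 % on chromosome 27, and exceeded those of shared sites on all 29 autosomes, by 10.9 to 31.2 points. Chromosome 25 held the most members per Mb (142.6) and chromosome 1 the fewest (26.0).

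The windows of 100 kb richest in members were distal but unlike in level. At chr22:60000001-60100000 there were 137 members with a mean of 46.6 %, and the 72 shared sites of the window had 46.7 %. At chr5:117000001-117100000 125 members had 31.8 % and 103 shared sites 2.41 %. At chr25:42100001-42200000 118 members had 38.8 % and 100 shared sites 11.4 %. Across the genome 13083 such windows held a member, at a median of 6, and the richest 1308 windows held 38.1 % of the members.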

How the data were processed

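DNA from each tissue was cut with *MspI*, size-selected, treated with bisulfite and sequenced with paired reads of 49 bases. After trimming, the authors mapped reads to UMD3.1 with their own pipeline built on SOAPaligner, and they deposited cytosines with at least 8 uniquely mapped reads. The deposited depth is a count of reads without normalization, and the authors gave the methylation level as a fraction, from which percentages were made here. Deposited enrichment, p-value and FDR columns were not used.

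Members were matched on chromosome, position and strand. Levels were averaged over sites without weights. The local value of a site was the mean over shared sites within 1 kb. Tissues were compared by exact sign-flip permutation over 10 libraries or by exact permutation of 1 against 9, whose smallest p is 0.1. With 1 library per tissue these tests concern the libraries. Sites share reads and were not used as replicates. Intervals are 95 % Wilson intervals of counting error, and for 0 methylated reads the limit was 3 reads.

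The members, lists and named regions were chosen with earlier results of these data known. The comparisons by CCGG spacing, read stack, CG density and strand, the assembly of sequence runs and the cluster with opposite strands were chosen after seeing the data. Regions were named by a rule: the 5 clusters with the most members, the 3 with the most members and no other library within 10 kb, the 3 highest and 3 lowest with at least 10 members and a median of 15 reads, the 4 furthest above and 4 furthest below at least 5 shared sites, and the 3 windows of 100 kb with the most members. Alternatives are given in the closing section. Thinning kept 58.1 % of the testis reads at each CG site (random seed 1). This was the ratio of the median of the 9 others to testis in reads summed over listed cytosines, not in mapped reads. Scripts were tested on simulated data and run in Python 3.11.15 with NumPy 2.4.6, SciPy 1.17.1, pandas 2.3.3 and matplotlib 3.10.9. Genes, promoters and repeats were not analysed here.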

Additional observations from a re-analysis of the deposited data

Results flagged for a closer look

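Sites outside the autosomes were left out of the comparisons. The X chromosome held 1493 CG sites covered only in testis, 43.1 % of the CG sites covered there in testis, with a mean level of 43.5 % beside 19.7 % at shared sites. Unplaced sequence held 807 such sites, with a mean level of 54.1 % beside 46.9 % at shared sites. Both were flagged because they are signal in data that the comparisons did not use. The mitochondrial genome held 0 such sites among 41 CG sites covered in testis.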

How the results depend on the processing

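The number of testis-only sites was 23834 at 20 reads and 58896 after thinning, and stayed within 1.5 times its value under 3 other choices. Their mean level was 45.9 % at 10 reads, 46.2 % at 20 reads, 45.6 % weighted by reads, 45.8 % without members whose other strand another tissue covers, 45.8 % after thinning, 50.9 % in read stacks and 55.7 % over clusters. Over the tissues, only-sites minus shared sites reversed to -3.57 points (testis 13.0) when weighted by reads; at 20 reads it was 21.6 (9 of 10 positive, exact sign-flip permutation p = 0.0156), where uterus had 1 site and frontal cortex 2. In testis alone that difference was 28.1 points in read stacks and 1.5 with shared sites at the members' CG density. The value of 1.5 averages gaps of opposite sign at low and high density. The local difference was -0.927 points at 20 reads, -3.87 at 220 bp, 0.773 at 5 kb and -0.886 in read stacks. The median distance to shared sites was 110372.0 bp on the same strand and 2675.0 bp to any other tissue. The share at chromosome ends was 11.7 % in the last 2 Mb, 4.07 % in the first 3 Mb and 29.3 % of clusters. Between strands r was 0.832 in testis at 20 reads. Of 67 alternatives, 10 were added after seeing the data. The local difference turned positive at 5 kb alone. Among tests that kept their direction, the local difference over 9 tissues was -3.88 at 20 reads. The gap in r between testis and the other tissues was -0.132 at 20 reads against -0.332. With 0.1 as its smallest p, the permutation of 1 against 9 could not pass a usual threshold under any alternative. No paired analysis was possible because each tissue had 1 library. Single libraries, a median of 12 reads and a whole tissue of mixed cells limit every value.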
